A study of Saccharomyces cerevisiae with 24 samples.

Results

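The pre-60S ribosome assembly factors described here are 44 budding yeast genes, taken by gene symbol from a table of 6612 transcripts. All 44 were found, and all 44 were among the 6357 genes that were tested, those with a mean of at least 1 TPM (a transcript's share of the library per length, on a fixed total), so no member was lost to the filter on low values. The members were chosen by the function of their proteins and not by a measured value, though with earlier results of these data known. RNA-seq was performed in 3 Saccharomyces cerevisiae strains whose SFP1 gene is tagged with MYC, namely WT, K655/657R (SFP1-K655R-K657R-MYC) and K655/657Q (SFP1-K655Q-K657Q-MYC). By the labels all 3 carry the KanMX marker and the alleles can1-100, ura3-1, trp1-1, his3-11,15 and ade2-1 and a mutant leu2 allele. The study's strain list instead gives its MYC-tagged K655/657R and K655/657Q strains a background with other his3, trp1 and ura3 alleles. Sfp1 is a transcription factor of growth genes. Arginine at these positions stands for lysine without an acetyl group and glutamine for lysine with one. Cells were grown in rich medium with 2% glucose (YPD), or moved to medium with 2% raffinose as the sole sugar (0 min), after which glucose was added to 2% and RNA was taken at 15 and 30 min. Each strain and condition has 2 replicates, 24 libraries in all. The labels do not say whether replicates were separate cultures, so the p-values below measure the spread between these samples, which may be technical.

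The large (60S) ribosomal subunit is assembled in the nucleolus, where precursor rRNA folds together with ribosomal proteins while assembly factors bind, remodel the particle and leave. Several factors act as modules that chaperone 1 rRNA domain, others are GTPases, ATPases or RNA helicases that drive irreversible steps, and others hold the place of a ribosomal protein until the particle nears or reaches the cytoplasm. Together with the genes of the small subunit processome and of RNA polymerase I, they form the ribosome biogenesis (RiBi) regulon of growing yeast cells, which is known for a pair of promoter elements, PAC and RRPE.

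The promoters of the members were therefore searched for the core letters of both elements, GATGAG for PAC and AAAATTT for RRPE, on both strands of the 250 bases before each start codon in the R64 reference (sequences from NCBI RefSeq). The PAC core was found in 38 of 44 members (86.4%) against 17% of the 6020 protein-coding genes with such a window, and the RRPE core in 43 of 44 (97.7%) against 21.6%. Both cores were present in 37 members (84.1%) and in 6.61% of all windows. Among the 82 genes with a symbol of large subunit ribosomal proteins, 2.44% held both. The rule by symbol also matches RPP1, which encodes a subunit of RNase P and not a ribosomal protein. Counts over the 82 genes here and below may therefore include it. The RRPE core overlaps its own reverse complement, so that the 8 letters AAAATTTT match on both strands, and these 8 letters were in 39 members (88.6%) against 8.62% of all windows. PAC matches were centred at a median of 116.5 bases before the start codon and RRPE matches at 136.5, close to the medians of 128 and 133.5 over all windows. Centres within 60 to 200 bases were more frequent in members, with 56 of 64 PAC and 90 of 104 RRPE matches. Over all windows these shares were 71.3% and 72.8%. In the 37 members with both, the nearest PAC and RRPE centres lay a median of 16.5 bases apart (8.5 to 103.5), and PAC was the one nearer to the start codon in 30. A match is a description of these letters and not a shown binding site.

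The windows of 6 genes are printed because the results below turn on their genes, with all PAC and RRPE matches in capitals and the strand of the gene read 5′ to 3′. NOP7, at chrVII:695167-695416 on the + strand, had the largest change in K655/657Q in YPD on the log2 scale used below. SSF1, at chrVIII:229085-229334 on the + strand, and SSF2, at chrIV:1087331-1087580 on the + strand, are paralogs that responded differently to glucose. TIF6, at chrXVI:593070-593319 on the - strand, had the smallest change in YPD. NSA1, at chrVII:299728-299977 on the + strand, is 1 of the 6 members without a PAC core, and RRP1, at chrIV:618307-618556 on the - strand, is the member without an RRPE core.
NOP7: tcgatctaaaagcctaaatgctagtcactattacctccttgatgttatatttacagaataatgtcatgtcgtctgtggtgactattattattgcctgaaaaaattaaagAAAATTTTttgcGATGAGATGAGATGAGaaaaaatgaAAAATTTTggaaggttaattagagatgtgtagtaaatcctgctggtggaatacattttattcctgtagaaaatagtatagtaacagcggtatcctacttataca
SSF1: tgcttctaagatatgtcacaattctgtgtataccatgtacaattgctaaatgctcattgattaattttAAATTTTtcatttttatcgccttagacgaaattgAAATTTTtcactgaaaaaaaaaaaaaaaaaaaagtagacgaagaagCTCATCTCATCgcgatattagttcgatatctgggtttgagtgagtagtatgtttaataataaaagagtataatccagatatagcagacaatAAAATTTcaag
SSF2: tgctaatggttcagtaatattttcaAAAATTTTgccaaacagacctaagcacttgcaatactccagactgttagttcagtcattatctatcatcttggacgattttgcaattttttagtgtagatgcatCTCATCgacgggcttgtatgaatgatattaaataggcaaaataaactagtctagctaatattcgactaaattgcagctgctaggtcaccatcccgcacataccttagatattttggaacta
TIF6: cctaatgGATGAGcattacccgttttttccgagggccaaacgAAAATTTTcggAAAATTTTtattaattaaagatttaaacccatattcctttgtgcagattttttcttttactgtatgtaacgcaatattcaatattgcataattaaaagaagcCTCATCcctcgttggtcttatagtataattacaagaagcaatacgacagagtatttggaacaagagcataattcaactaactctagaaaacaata
NSA1: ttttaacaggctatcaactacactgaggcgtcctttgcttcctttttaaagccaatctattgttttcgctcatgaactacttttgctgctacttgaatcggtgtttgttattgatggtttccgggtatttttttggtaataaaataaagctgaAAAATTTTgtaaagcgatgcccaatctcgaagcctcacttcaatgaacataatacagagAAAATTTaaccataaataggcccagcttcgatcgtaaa
RRP1: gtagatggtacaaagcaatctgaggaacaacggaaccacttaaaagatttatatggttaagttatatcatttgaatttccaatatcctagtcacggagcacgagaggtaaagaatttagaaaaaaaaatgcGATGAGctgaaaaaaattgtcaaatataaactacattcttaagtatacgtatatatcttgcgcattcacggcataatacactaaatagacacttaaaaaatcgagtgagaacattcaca
NOP7 holds overlapping PAC cores between a pair of AAAATTTT stretches. The nearest PAC and RRPE centres were 45.5 bases apart in SSF1 and 102.5 in SSF2. The 6 members without a PAC core are NOP53, NSA1, SPB1, RIX1, IPI1 and IPI3. No member lacked both cores. The genes lie on 13 chromosomes, and 4 of 44 (9.09%) were direct neighbours of another gene of the assembly lists, against 4.97% of all genes.

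**Figure D1:**
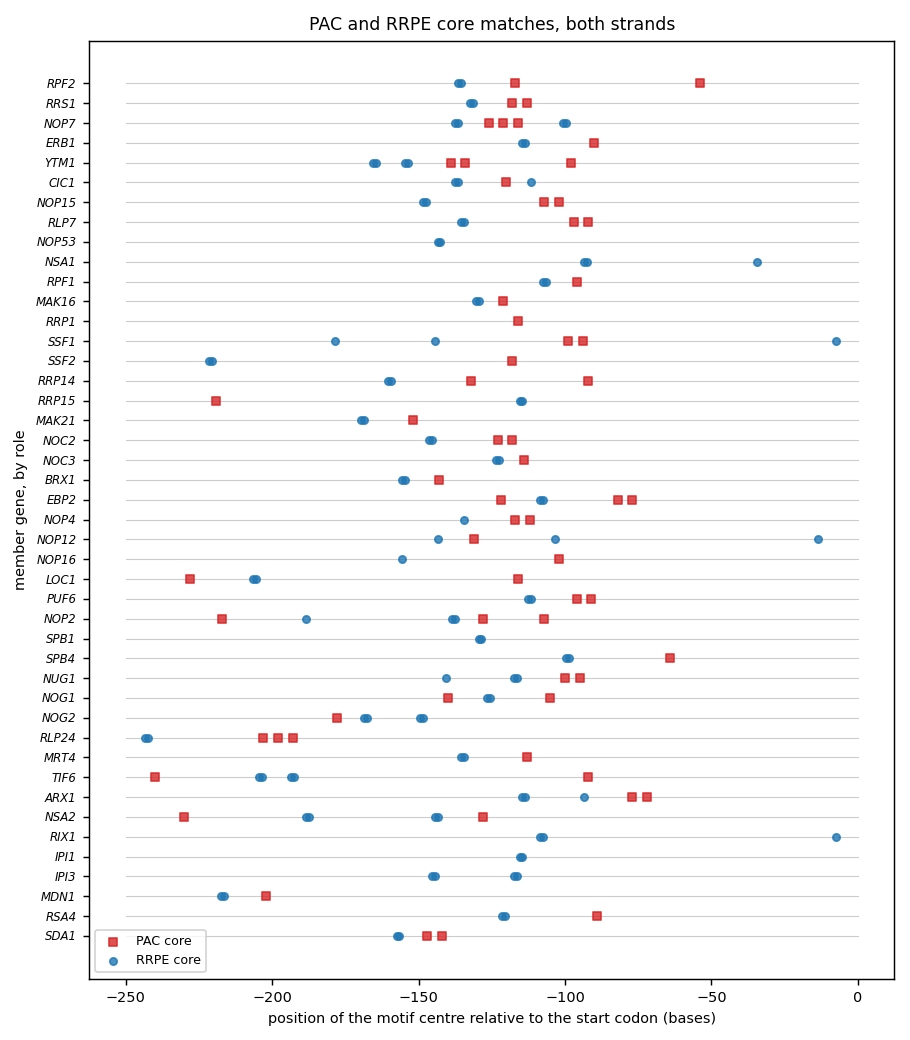
Position of each PAC core (red squares) and RRPE core (blue circles) in the 250 bases before the start codon of the 44 members, in order of role, on a scale in bases relative to the start codon. Most matches form a band in the middle of the window, with medians 116.5 (PAC) and 136.5 (RRPE) bases before the start codon, and PAC was the nearer of the closest pair in 30 of 37 members.

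The table holds estimated TPM. TPM were divided here by a size factor per library (0.802 to 1.14 in the 23 libraries fitted), and the result is called the scaled TPM. A log2 fold change is a difference of mean log2(scaled TPM + 1) and understates the change of low genes. A gene was called when limma gave an adjusted p under 0.05 over all 6357 genes and the fold change was at least 1.5 (0.585 on the log2 scale). The table gives no read numbers, so the depth of the libraries is unknown. K655/657R replicate 2 at 30 min was left out, so this group has 1 library and no test. In that library the difference from replicate 1 over the 44 members went with coding length (Spearman's rho = -0.65), with a median of 0.38 for the 10 shortest and -0.14 for the 10 longest, whereas rho between replicates in the other 11 groups ranged from -0.34 to 0.34. In those groups the replicate difference over members, as a root mean square of log2 values, was 0.0777 to 0.219. In these bulk samples a lower value can mean less of that mRNA per cell or more of all other mRNA, which cannot be told apart.

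The 44 mRNAs together made up 0.0547% and 0.0577% of all TPM in the WT libraries in YPD and 0.312% and 0.332% at 15 min after glucose. Levels per length differed widely among members. TIF6, which encodes the factor that keeps the subunits from joining, was the highest in every library, at a scaled TPM of 136 and 130 in WT in YPD. RIX1 was the lowest there, at 1.65 and 1.86, and the median member had 10.5 in both libraries. Each of the 44 had its lowest group mean in YPD, 24 of them in WT and 20 in K655/657R. The highest group mean was at 15 min in K655/657R for 28 members and in WT for 14, and at 30 min for MDN1 and LOC1. From the lowest to the highest group the scaled TPM differed 2.62-fold for SPB4, an RNA helicase, and 16-fold for RSA4, a remodelling factor that Mdn1 pulls from the particle.

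**Figure D2:**
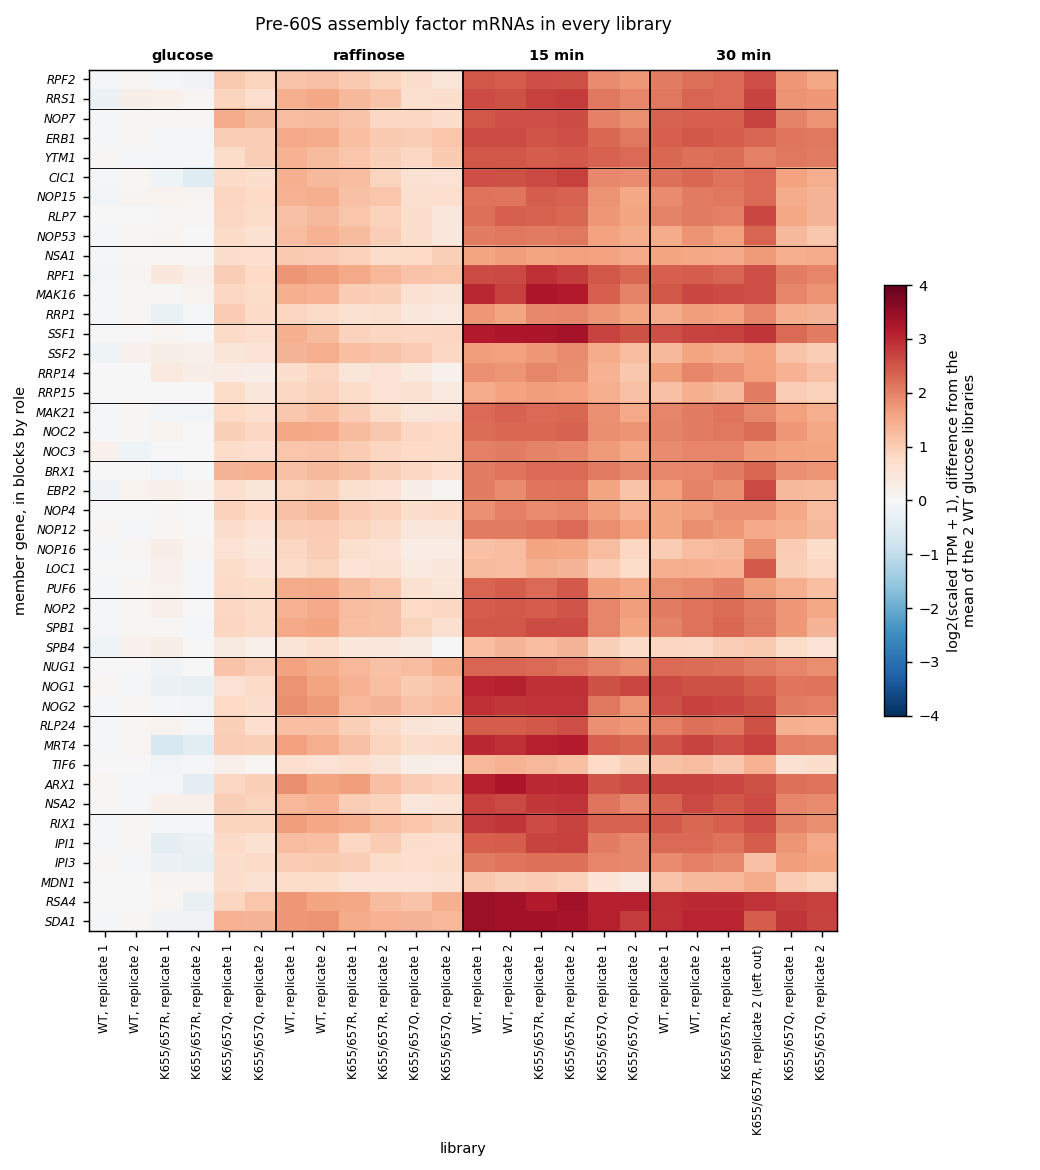
The 44 members (rows, in blocks by role) in all 24 libraries (columns, by condition and strain), coloured by log2(scaled TPM + 1) minus the mean of the WT libraries in YPD. K655/657Q stands above WT in YPD and below it in the other 3 conditions, and SPB4, TIF6 and MDN1 have the palest rows.

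In YPD, the question is what the acetyl-mimic form of Sfp1 does to these mRNAs in cells with ample glucose. All 44 members were higher in K655/657Q than in WT and 37 were called up, whereas 6.69% of all genes were called up and 7.06% down. The median of the members was 0.78 on the log2 scale, against 0.01 over all genes tested, and the median ratio of scaled TPM was 1.79. NOP7, a subunit of the PeBoW complex needed for maturation of 5.8S and 25S rRNA, had a scaled TPM of 15.2 and 16.5 in WT, of 16.9 and 16.5 in K655/657R, but of 46.5 and 40.7 in K655/657Q. The K655/657Q libraries stood apart from the other 4, which overlapped. Its log2 fold change over WT was 1.40 (SE 0.0961, limma adjusted p = 2.53e-08).

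BRX1 and SDA1 followed on this scale, while by the ratio of mean scaled TPM SDA1 came before NOP7 (2.75) and BRX1 (2.66). BRX1, a Brix-domain factor that works with Ebp2, had 19.1 and 18.9 in WT, close to the 17.4 and 19.4 of K655/657R, and 49.9 and 51.1 in K655/657Q (log2 fold change 1.37, SE 0.0854, limma adjusted p = 1.06e-08). SDA1, needed for late nuclear maturation and export, had 3.52 and 3.76 in WT, close to the 3.19 and 3.16 of K655/657R, and 11.1 and 10.8 in K655/657Q, a ratio of means of 3.01 and a log2 fold change of 1.36 (SE 0.0892, limma adjusted p = 1.74e-08). In both genes WT and K655/657R lay close together and K655/657Q far above them.

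NUG1, RPF2 and NSA1, also the targets of RT-qPCR, differed in size of change. NUG1, a nuclear GTPase of the particle, had 13.2 and 13.1 in WT and 30.2 and 27.2 in K655/657Q (log2 fold change 1.06, SE 0.0859, limma adjusted p = 1.31e-07). RPF2, which with Rrs1 brings in the 5S ribonucleoprotein, had 12.8 and 14.01 in WT and 28.8 and 25.9 in K655/657Q (0.98, SE 0.0959, limma adjusted p = 9.42e-07). NSA1, a core of the module on the solvent side, had 10.1 and 10.9 in WT and 17.9 and 17.2 in K655/657Q (0.68, SE 0.0706, limma adjusted p = 1.58e-06). All 3 were called, and in none did K655/657Q overlap WT.

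By role, every measured member was called up among the 5S recruitment factors (2 of 2), the PeBoW complex (3 of 3), the factors on the ITS2 spacer (4 of 4), the Nsa1 module (4 of 4), the Noc proteins (3 of 3), the GTPases (3 of 3) and the Rix1-Rea1 remodelling machinery (6 of 6). In the Ssf1 module it was 1 of 4. The 7 members that were not called were SSF2, RRP14 and RRP15 of that module, EBP2, NOP16, SPB4 and TIF6. RRP15 (0.58, adjusted p = 6.96e-04 by limma) missed the fold change threshold alone, and EBP2, SSF2 and NOP16 likewise lay between 0.50 and 0.57, with adjusted p of 0.00277 to 0.00418 by limma. The smallest differences were in TIF6 (0.14, SE 0.0743, limma adjusted p = 0.146), RRP14 (0.29, SE 0.115, limma adjusted p = 0.0588) and SPB4 (0.29, SE 0.130, limma adjusted p = 0.0855). TIF6 had 136 and 130 in WT, 122.5 and 128 in K655/657R, but 151 and 142 in K655/657Q, so its K655/657Q values were the highest of the 6 but close to WT. RRP14 had 10.6 in both WT libraries and 13.3 and 13.1 in K655/657Q, and 14.3 and 12.9 in K655/657R, which overlapped K655/657Q. SPB4 had 7.58 and 9.87 in WT and 11.5 and 10.1 in K655/657Q.

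Related gene lists were counted beside the members. Of the other 60S assembly factors 24 of 40 were called up (median 0.71), with the largest changes in SYO1 (1.07), which carries Rpl5 and Rpl11 into the nucleus, and NMD3 (1.07), the export adaptor of the 60S subunit. The counts were 40 of 50 for the small subunit processome (median 0.70) and 6 of 16 for RNA polymerase I (median 0.41). Of the 82 genes of large subunit ribosomal proteins 0 were called in either direction by limma, with 20 at an unadjusted p under 0.05 and a median of -0.05. Among members with both promoter cores the median was 0.78 (n = 37) and among the others 0.73 (n = 7).

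K655/657R did not show that pattern. In YPD 0 of 44 members were called up or down against WT by limma (8 had an unadjusted p under 0.05), while 1.09% of all genes were called up and 0.551% down. The members' median was 0.03, with 25 higher and 19 lower. The largest difference was in MRT4, which holds the place of the stalk protein P0, with 13.7 and 15.6 in K655/657R against 20.4 and 22.98 in WT (-0.54, SE 0.0982, limma adjusted p = 0.00305), under the fold change threshold. MRT4 was called down with TPM as deposited, without WT replicate 1 and without K655/657R replicate 2, 1 call each time, and 2 members were called down with no fold change threshold. Taken directly against K655/657R, K655/657Q had 35 members called up, where 9.03% of all genes were, with a median of 0.76. SDA1 (1.52) and MRT4, in that order, differed most.

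**Figure D3:**
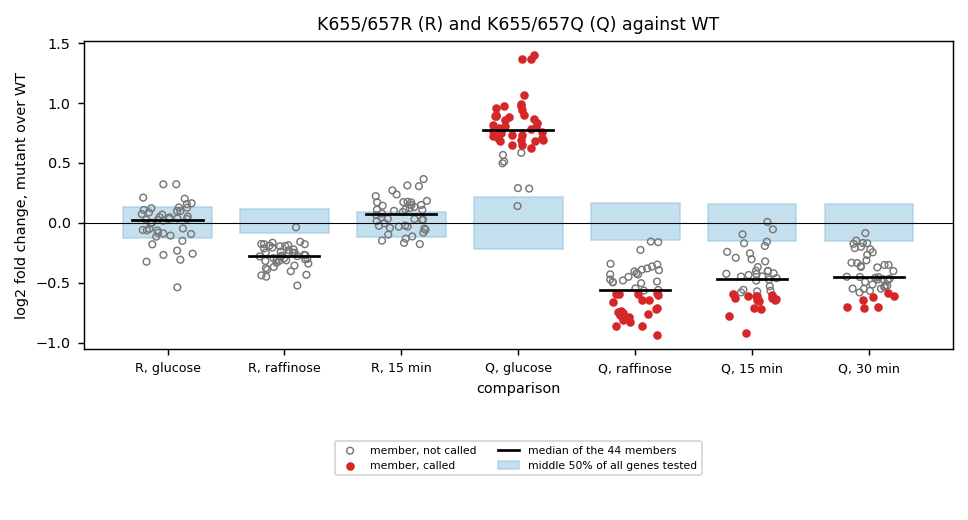
Log2 fold change of each of the 44 members in K655/657R (R) and K655/657Q (Q) over WT in each condition (circles, filled red when called), their median (black line) and the middle 50% of all 6357 genes (blue band). The median in K655/657Q is 0.78 in YPD and -0.56, -0.47 and -0.46 in raffinose, at 15 min and at 30 min. The members of K655/657R lie around 0 in YPD and at 15 min and just under 0 in raffinose.

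Growth on raffinose raised nearly all of these mRNAs in WT. Of 44 members 43 were called up in raffinose against YPD, where 19.0% of all genes were, with a median of 1.32 and a median ratio of 2.67. Large subunit ribosomal protein genes went the other way, with 60 of 82 called down and 2 up (median -0.83). In K655/657R 38 members were called up (17.4% of all genes), with a median of 1.04. The 6 that were not called there were RRP14, EBP2, NOP16, LOC1, SPB4 and MDN1. The WT and K655/657R changes share no library, and over the 44 members they had a Pearson's r of 0.86 and a Spearman's rho of 0.84, as a description over genes that share libraries and scaling.

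In WT the largest rises on the log2(scaled TPM + 1) scale were in NOG2, SDA1 and RPF1. By the ratio of mean scaled TPM, the low members RIX1 (4.23), SDA1 (4.07) and RSA4 (4.01) came before NOG2 (3.75) and RPF1 (3.53). NOG2, a GTPase of the nuclear particle and the only member with an intron, had 7.90 and 8.53 in YPD and 32.5 and 29.2 in raffinose (1.79, SE 0.0899, limma adjusted p = 1.30e-10). SDA1 went from 3.52 and 3.76 to 14.3 and 15.3 (1.77, SE 0.0892, limma adjusted p = 1.31e-10). RPF1, a Brix-domain protein of the Nsa1 module, went from 8.50 and 10.2 to 33.8 and 32.1 (1.72, SE 0.104, limma adjusted p = 8.29e-10). In these genes no raffinose value overlapped a YPD value. The smallest were SPB4 (0.57, SE 0.130, limma adjusted p = 0.00102, not called), TIF6 (0.62) and MDN1 (0.74).

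K655/657Q did not raise the members in raffinose. In that strain 0 of 44 were called up by limma, where 11.5% of all genes were, and 2 were called down, where 9.11% were. At an unadjusted p under 0.05, 16 members differed in either direction. The median was -0.08, with 16 higher and 28 lower, and its sign depended on the scaling (0.11 with TPM as deposited and 0.04 when scaled to ACT1, against all-gene medians of 0.19 and 0.12). The members called down were NOP7, from 46.5 and 40.7 in YPD to 28.7 and 26.2 in raffinose (-0.65, SE 0.0961, limma adjusted p = 4.06e-05), and BRX1, from 49.9 and 51.1 to 34.8 and 31.03 (-0.61, SE 0.0854, limma adjusted p = 2.43e-05). Both are among the members that rose most in K655/657Q over WT in YPD, but that comparison and this one share the K655/657Q libraries in YPD. The YPD and raffinose values of both genes did not overlap. With TPM as deposited these calls were lost and 3 other members, NOG2 (0.65), NOG1 (0.61) and SSF2 (0.60), were called up instead, and scaled to ACT1 there were 0 calls in either direction. The count was 0 without K655/657Q replicate 2 in raffinose and 1 without its replicate 1 in YPD. With the size factors used here, the 3 GTPases NOG2 (0.45), NOG1 (0.40) and NUG1 (0.27) were higher in raffinose but under the fold change threshold.

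The effect of K655/657Q on the members thus differed between the media, and that difference was tested directly. The K655/657Q difference from WT was smaller in raffinose than in YPD for all 44 members and the change was called for 43, where 9.39% of all genes were called in that direction, with a median of -1.37. NOP7 (-1.90, SE 0.136), BRX1 (-1.84, SE 0.121) and NSA2 (-1.80, SE 0.127) changed most on the log2(scaled TPM + 1) scale. SDA1 followed at -1.79, and with a pseudocount of 0.1 it came first. TIF6 (-0.54, SE 0.105, limma adjusted p = 8.83e-04) was the member not called. For the large subunit ribosomal protein genes the same test called 1 of 82 down and 1 up.

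Within raffinose all 44 members were lower in K655/657Q than in WT. Of these 21 were called down, where 2.17% of all genes were, with a median of -0.56 and a median ratio of 0.659. PUF6, an RNA-binding pumilio-repeat protein, had 23.98 and 24.8 in WT, 20.5 and 18.6 in K655/657R, but 12.8 and 11.7 in K655/657Q (-0.94, SE 0.0981, limma adjusted p = 6.49e-05). NSA2, a factor at the peptidyl transferase centre, had 34.3 and 36.2 in WT, 26.8 and 26.0 in K655/657R, but 18.2 and 19.6 in K655/657Q (-0.86, SE 0.0900, limma adjusted p = 6.49e-05). MAK16, of the Nsa1 module, had 37.4 and 36.3, then 27.6 and 26.3, then 20.4 and 19.4 (-0.86, SE 0.118, limma adjusted p = 2.20e-04). In these 3 genes the strains did not overlap and K655/657R lay between WT and K655/657Q.

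NSA1, MDN1 (-0.16) and NUG1 differed least from WT in raffinose. NSA1 had 22.7 and 22.5 in WT and 19.2 and 21.1 in K655/657Q (-0.16, SE 0.0706, limma adjusted p = 0.131), NUG1 had 42.8 and 39.0 against 32.4 and 37.4 (-0.23, SE 0.0859, limma adjusted p = 0.0753), and RPF2 had 30.5 and 31.4 against 22.3 and 18.9 (-0.57, SE 0.0959, limma adjusted p = 9.64e-04). None of the 3 was called, RPF2 through the fold change threshold alone. Of the ITS2 factors all 4 were called, of the placeholder and export factors 4 of 5, and of the Rix1-Rea1 machinery 1 of 6. Of the other 60S assembly factors 7 of 40 were called down, of the small subunit processome 13 of 50 and of large subunit ribosomal protein genes 0 of 82 by limma (22 at an unadjusted p under 0.05).

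The K655/657Q comparisons in YPD and in raffinose share no library, and over the 44 members Pearson's r between them was -0.06 and Spearman's rho -0.13, as a description. Of the 44, 19 were called up in YPD and down in raffinose, 18 were called in YPD alone, EBP2 and NOP16 in raffinose alone, and SSF2, RRP14, RRP15, SPB4 and TIF6 in neither. In K655/657R all 44 members were also below WT in raffinose, with a median of -0.28, but 0 were called by limma (32 had an unadjusted p under 0.05 and 6 an adjusted p under 0.05), where 0.0472% of all genes were called down. MRT4 (-0.52, limma adjusted p = 0.0373) and SSF1 (-0.45, limma adjusted p = 0.0287) were the lowest.

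**Figure D4:**
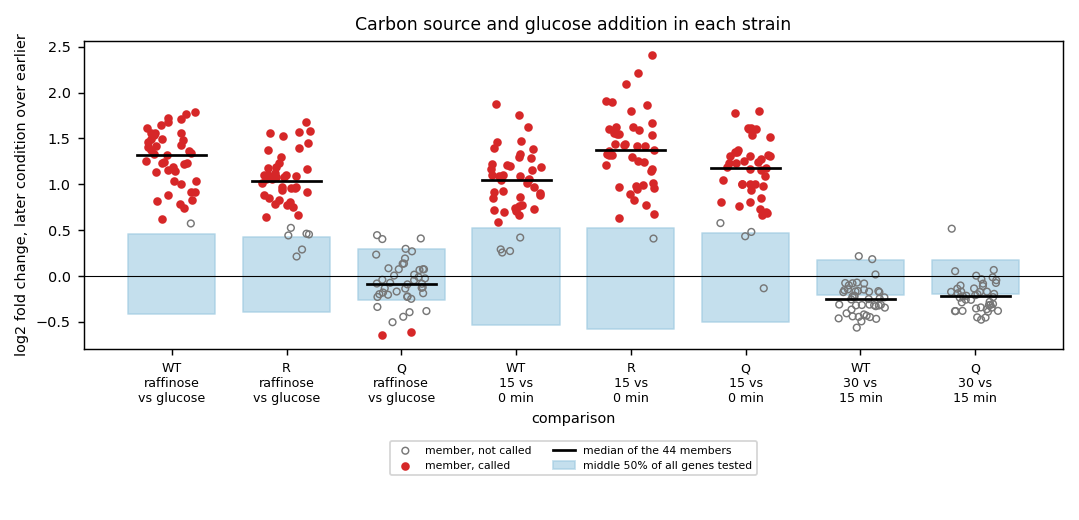
Log2 fold change of each of the 44 members in raffinose over YPD, at 15 min over 0 min and at 30 min over 15 min, in WT, K655/657R (R) and K655/657Q (Q), with called members in red, the members' median as a line and the middle 50% of all 6357 genes as a band. K655/657Q lacks the rise in raffinose (median -0.08 against 1.32 in WT) and shows the rise at 15 min (median 1.17 against 1.05).

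Glucose addition raised the members within 15 min in all 3 strains. In WT 40 of 44 were called up (21.7% of all genes), in K655/657R 43 (22.4%) and in K655/657Q 40 (19.1%), with medians of 1.05, 1.37 and 1.17. Over members the changes in WT had a Pearson's r of 0.89 with those in K655/657Q and 0.91 with those in K655/657R, each pair of comparisons sharing no library, as a description. In WT the largest rises after SSF1 were RSA4, from 10.5 and 9.25 to 36.7 and 34.6 (1.75, SE 0.133, limma adjusted p = 7.79e-09), and SDA1, from 14.3 and 15.3 to 49.2 and 46.1 (1.62, SE 0.0892, limma adjusted p = 1.82e-10). SSF2, NOP16, LOC1 and MDN1 were not called in WT. NOP16, an RNA-binding factor, had 53.1 and 58.95 in raffinose and 67.2 and 70.2 at 15 min (0.29). The related lists rose too, with 34 of 40 other 60S factors, 50 of 50 processome genes, 11 of 16 RNA polymerase I genes and 64 of 82 large subunit ribosomal protein genes called up.

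SSF1 and SSF2 encode near-identical Brix-domain proteins that bind the precursor with Rrp14 and Rrp15, and they mark the ends of the WT response. SSF1 had 13.1 and 11.7 in raffinose, 47.0 and 49.0 at 15 min and 30.6 and 33.8 at 30 min (15 over 0 min: 1.87, SE 0.0804, limma adjusted p = 1.03e-11). SSF2 had 12.7 and 13.8, then 16.1 and 15.9, then 12.3 and 15.0 (0.26, SE 0.119, limma adjusted p = 0.0651). The paralogs were level in raffinose and differed about 3-fold at 15 min.

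The ratio of SSF1 to SSF2 was 0.786 to 1.03 over the 6 raffinose libraries, 2.40 to 3.07 over the 6 at 15 min and 2.16 to 2.49 over the 6 at 30 min, the library left out included. The ranges of raffinose and of both later times did not overlap, in any strain. In YPD the ratio was 0.827 to 1.22. The coding sequences are 92.1% identical, and 15.6% of the 31-base words of each occur in the other, so reads from shared stretches had to be divided between them by the authors' quantification and the 2 levels are less certain than those of other members.

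MDN1 encodes the largest member, the dynein-like ATPase that strips factors from the particle, with a coding sequence of 14733 bases against a median of 1374. In WT it had 7.29 and 7.41 in raffinose, 9.58 and 8.61 at 15 min and 10.1 and 11.4 at 30 min. In K655/657Q it had 6.35 and 6.58, then 6.26 and 5.38, then 9.13 and 8.35. The WT values were higher at each time, while those of K655/657Q were level or lower at 15 min and higher at 30 min. At 15 min over 0 min its log2 fold change was 0.27 in WT and -0.13 in K655/657Q, and the difference between these responses was -0.41 (SE 0.116, limma adjusted p = 0.0527), which was not called. From 15 to 30 min it was 0.52 in K655/657Q (SE 0.0821, limma adjusted p = 1.93e-04), under the fold change threshold, which it passed under each of the other 3 scalings and without K655/657Q replicate 1 at 15 min.

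**Figure D5:**
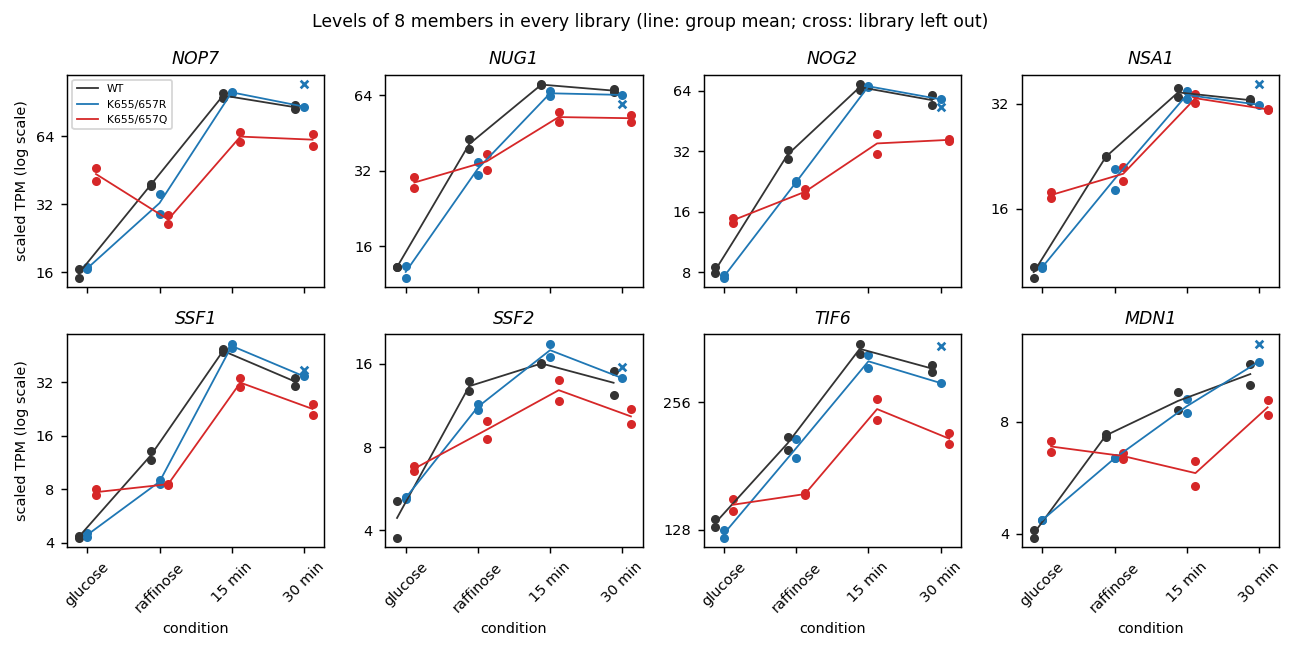
Scaled TPM (log scale) of 8 members in every library of WT (black), K655/657R (blue) and K655/657Q (red) in YPD (glucose), in raffinose and at 15 and 30 min after glucose, with lines through group means and a cross for the library left out. SSF1 rises about 4-fold from raffinose to 15 min in WT while SSF2 stays near 13 to 16, and MDN1 in K655/657Q is lowest at 15 min.

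The responses of K655/657Q and WT to glucose were not told apart for the members. At 15 min 0 of 44 responses differed by limma (8 at an unadjusted p under 0.05), where 1.29% of all genes were called in the direction of a larger response in K655/657Q and 1.67% in the other, and the median difference was 0.12. At 30 min 0 differed as well by limma (4 at an unadjusted p under 0.05), where 1.12% of all genes had a larger response called in K655/657Q and 2.93% a smaller one, with a median of 0.16, while 37 of 82 large subunit ribosomal protein genes had a smaller response in K655/657Q (median -0.56). Against WT at the same time, 43 of 44 members were lower in K655/657Q at 15 min and all 44 at 30 min. At 15 min 15 were called down (2.47% of all genes), with a median of -0.47, and at 30 min 7 (2.80%), with a median of -0.46. Both counts depended on single libraries. Without K655/657Q replicate 2 the count at 15 min was 5, and at 30 min it was 4 without WT replicate 2 and 14 without WT replicate 1 or without K655/657Q replicate 1.

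CIC1, MAK16, NOG2, RLP24, MRT4 and NSA2 were called down in K655/657Q in raffinose, at 15 min and at 30 min. NOG2 had 69.1 and 64.5 in WT and 38.9 and 31.1 in K655/657Q at 15 min (-0.92, SE 0.0899, limma adjusted p = 4.53e-06), and PUF6 had 44.2 and 47.6 against 27.6 and 25.04 (-0.78, SE 0.0981). SPB1, an rRNA methyltransferase, had 36.6 and 36.5 against 24.9 and 19.1 (-0.72, SE 0.123). The strains did not overlap in any of the 3. RRP1 (0.01), NSA1 (-0.05) and BRX1 (-0.10) differed least. NSA1 had 33.6 and 35.5 in WT and 34.2 and 32.2 in K655/657Q, which overlapped.

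After 15 min the members stayed high. From 15 to 30 min 0 of 44 were called by limma in WT (5.79% of all genes were called down, 28 members had an unadjusted p under 0.05) or in K655/657Q (6.40% down, 24 members). The medians were -0.25 and -0.22, with 41 and 40 members lower. At 30 min the median ratio to the same strain in YPD was 4.53 in WT and 1.77 in K655/657Q. K655/657R replicate 1 at 30 min, a library without a partner, was a median of 0.02 above the WT mean over the members.

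In K655/657R the levels at 15 min were close to WT, while the rise from 0 min was larger in most members. The members' median ratio of scaled TPM to WT was 0.822 in raffinose (0 min) and 1.06 at 15 min. The study's own RNA-seq reports more RiBi expression in K655/657R than in WT over the glucose pulse, with values set relative to 0 min. At 15 min 0 members were called against WT by limma (6 at an unadjusted p under 0.05, 0% of all genes called up and 0% down), with a median of 0.07, and these differences went with coding length over the 44 members (Spearman's rho = -0.68), whose part in the result was not tested. Of the members, 43 of 44 had a larger 15 min response than in WT, with a median difference of 0.32 (Spearman's rho with coding length -0.54, whose part was not tested), and 25 had an unadjusted p under 0.05. MRT4 was called (0.69, SE 0.139, limma adjusted p = 0.0497), where 0.0787% of all genes were. It went from 49.8 and 41.4 to 195 and 199 in K655/657R, whereas it went from 70.1 and 61.5 to 181 and 169 in WT. The call was lost under 7 of 9 alternatives, and the count was 3 without WT replicate 1 at 15 min, 1 without K655/657R replicate 1 in raffinose and 0 without any other library of these 4 groups.

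The placeholders RLP24 and MRT4, and RLP7 of the ITS2 factors, can be set beside the ribosomal proteins they resemble. RLP24, which precedes Rpl24, had 36.6 and 41.3 in WT in YPD, 89.9 and 90.2 in raffinose, 213 and 211 at 15 min and 159 and 183 at 30 min. RPL24A had 1364 and 1422, then 826 and 805, then 1412 and 1281, then 1568 and 1754. RLP24 rose in raffinose (1.19, limma adjusted p = 4.09e-08) where RPL24A fell (-0.77, limma adjusted p = 6.66e-08), and both rose with glucose. RPL24B, its near-identical paralog, went from 869 and 1026 in YPD to 510.4 and 553.5 in raffinose (-0.83), and the division of reads within the RPL24 and RPL7 pairs is uncertain.

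RLP7, a relative of Rpl7 on the ITS2 spacer, had 25.4 and 25.5 in WT in YPD and 58.6 and 64.4 in raffinose (1.24, SE 0.0984), while RPL7A went from 1480 and 1379 to 700 and 664 (-1.07, SE 0.0809). RPL7B was low and moved like RLP7 in raffinose, from 63.0 and 58.8 to 92.8 and 95.8 (0.62, SE 0.110), and went from 191 and 159 at 15 min to 78.3 and 84.3 at 30 min (-1.09, SE 0.110). MRT4 went from 20.4 and 22.98 to 70.1 and 61.5 in raffinose (1.56, SE 0.0982), and RPP0, which encodes P0, from 2413 and 2378 to 1236 and 1265 (-0.94, SE 0.0784). In K655/657Q in YPD RLP24 was called up by 0.82, RLP7 by 0.78 and MRT4 by 0.96. None of the 5 ribosomal protein genes was called up there (-0.29 to 0.05).

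SFP1 itself had 11.6 and 12.5 in WT in YPD, 10.9 and 10.7 with the arginine change and 16.5 and 14.7 with the glutamine change (0.35, SE 0.0680, limma adjusted p = 6.88e-04), and in raffinose 17.3 and 16.9 in WT against 18.2 and 18.9 in K655/657Q (0.11, limma adjusted p = 0.259). The tag and the changed codons were not read in these values. These are mRNA values. For the protein the study reports equal Sfp1 levels in both mutants and WT, but names no mutant samples in raffinose or after glucose addition for this. ACT1, a common reference for RT-qPCR, had a negative difference between K655/657Q and WT in YPD (-0.45, SE 0.0615, limma adjusted p = 2.98e-05) and lower in raffinose than in YPD in WT (-0.72, limma adjusted p = 4.08e-08).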

How the data were processed

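RNA-seq libraries of 3 strains in 4 conditions were analysed, 2 for each, grouped by the labels. The authors trimmed reads with fastp 0.23.2 and quantified transcripts with kallisto 0.48.0 (per the submitters' processing notes) on R64-1-1 transcripts, and the values they deposited are TPM. TPM correct for length and sum to 1000000, so depth and counting error are unknown, and a change in abundant mRNAs moves all others. Count tests could not be used. The study's methods left out 30 min K655/657R replicate 2, and so did the fit.

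Each library was scaled by its median ratio to a reference library of geometric means, and log2(scaled TPM + 1) was used. The 6357 genes whose TPM averaged 1 or more were fitted with limma 3.58.1 in R 4.3.3 (lmFit, eBayes with trend), with 1 mean per strain and condition, 23 libraries and 11 residual degrees of freedom. The fit was tested on simulated data with independent noise in each gene and random genes shifted both ways. That setting held no effect shared by the genes of a library, so it gives no support to the calls here. Adjusted p are Benjamini-Hochberg values over all genes tested, within each of 20 comparisons, and the thresholds are those of the study. A permutation test of 2 libraries against 2 could not go below an exact p of 0.333. Comparisons between strains share WT libraries and those over time share time points.

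The members, gene lists, roles and tests were chosen with earlier results of these data known, and support nothing by their choice. Every member may be named. Values per library are given for the members measured by RT-qPCR in the study, the paralogs SSF1 and SSF2, and MDN1. They are also given for RLP24, MRT4 and RLP7 and the ribosomal proteins they resemble. Of other lists only the 2 largest changes are given. Also given per library are the members with the 3 largest and, in part, 3 smallest changes of a main comparison. SPB1 at 15 min is among the largest. The 8-letter motif and the distance between motifs were added after the first search. Large subunit ribosomal protein genes were taken by symbol, with a pattern that also matches RPP1 of RNase P. The alternatives changed the scaling, pseudocount, filter, fold change threshold and samples fitted, added a replicate block or left out each library in turn. Sequences are from the NCBI RefSeq R64 genome, and motifs were searched with Python 3.11.15.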

Additional observations from a re-analysis of the deposited data

Results flagged for a closer look

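The K655/657Q difference from WT changed between YPD and raffinose for 43 of the 44 members in limma's test of that interaction, in each case toward lower values in raffinose (median -1.37 on the log2 scale, 44 of 44 lower).

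The 15 min response of 1 member differed between K655/657R and WT by the same kind of test. MRT4 rose by 0.69 more in K655/657R (limma adjusted p = 0.0497), and its difference from WT in raffinose was -0.52, not called. This call was absent under 7 of the 9 alternatives that kept all libraries of the comparison.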

How the results depend on the processing

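Calls moved with the fold change threshold and the scaling, and calls against a comparison's main direction are given in the report. Without the threshold, members called down were 8 in K655/657Q from YPD to raffinose (and 5 up), 40 in K655/657Q against WT in raffinose, 34 at 15 min and 35 at 30 min, 6 in K655/657R against WT in raffinose, and from 15 to 30 min 20 in WT and 16 in K655/657Q. With TPM as deposited these were 0 for K655/657Q in raffinose against YPD (and 3 up), 2 from 15 to 30 min in WT and 0 for K655/657Q against WT at 30 min, and 4 responses to glucose differed at 30 min between K655/657Q and WT. With upper quartile factors they were 1 for K655/657Q in raffinose against YPD and 3 for K655/657Q against WT at 30 min. Scaled to ACT1 they were 0 for the former and 1 for K655/657R against WT in raffinose. The median of K655/657Q in raffinose over YPD turned from -0.083 to 0.114 with TPM as deposited and to 0.042 scaled to ACT1, where the median of all genes was 0.193 and 0.12; the cause was not tested. Over the comparisons that median was -0.515 to 0.665 scaled to ACT1 and -0.171 to 0.42 with TPM as deposited.

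The 1 larger 15 min response in K655/657R than in WT became 0 with TPM as deposited, upper quartile factors, a pseudocount of 0.1, no filter on low values, all 24 libraries or a fit of the groups compared alone, and 16 scaled to ACT1. With the replicate block it was 0, and the block changed no other count of members. Deviations of same-numbered samples had correlations of -0.35 to 0.31 over 16 pairs. Such a range cannot show whether same-numbered samples came from the same culture, and the main fit treated them as unpaired.

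With each library left out in turn there were 0 to 3 members called down in K655/657Q in raffinose over YPD (0 without K655/657Q replicate 2 in raffinose), 0 to 1 in K655/657R against WT in raffinose, 0 to 1 from 15 to 30 min in WT, 5 to 21 and 4 to 14 in K655/657Q against WT at 15 and 30 min, and 0 to 1 and 0 to 3 differing 15 min responses in K655/657Q and K655/657R. Where that left a group with 1 library, it was assumed to vary like the others. The count in YPD stayed at 35 to 38. With 2 libraries a group and no read numbers, small differences and low genes such as RIX1 are the least certain.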
